A study of Arabidopsis with 12 samples.

Results

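The nuclear genes of the photosynthetic electron transport chain were followed in 12 RNA-seq libraries of Arabidopsis seedlings. The set holds 32 of the 27655 loci in the deposited table and was chosen by locus, not by a measured value, though with earlier results of these data known. It comprises 13 loci listed with photosystem I, 10 of photosystem II, 6 of the carriers between and behind the photosystems, and 3 of the chloroplast ATP synthase, 7 paralog pairs among them. Seedlings were either flu single mutants or carried flu together with toc33-1, a combination written here as flu toc33. Both genotypes were grown in continuous light, to 7 d by the titles and the growth protocol and to a younger age by the design text of the series. Each was sampled after 4 h of darkness or after 4 h of darkness followed by 1 h of light, with 3 libraries in each of the 4 groups. The FLU protein restrains tetrapyrrole synthesis, so flu mutants accumulate protochlorophyllide in the dark, and this pigment generates singlet oxygen when the light returns. TOC33 is a receptor of the outer envelope through which chloroplasts import proteins made in the cytosol. All groups thus carried flu, no wild type was analysed here, and no group stayed dark for the additional hour, so light, elapsed time and clock phase cannot be told apart.

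In the thylakoid membrane, photosystem II oxidises water at a manganese cluster shielded by luminal proteins, and electrons pass through plastoquinone, the cytochrome complex and plastocyanin to photosystem I, ferredoxin and ferredoxin-NADP+ reductase. The proton gradient built up on the way drives the ATP synthase. The reaction-centre cores are encoded in the plastid genome, whereas the peripheral subunits, the luminal proteins and most soluble carriers described here are nuclear products that must be imported into the chloroplast. Several of them are encoded by a pair of closely related genes in Arabidopsis.

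Values are in TPM, the length-corrected unit of transcript abundance that adds up to the same total in every library, summed over the transcripts of a locus. Changes are given as the log2 difference of TPM + 1 with the standard error of a limma model over all 12 libraries, and a gene was called higher or lower at a Benjamini-Hochberg adjusted p under 0.05 over the 19667 loci that reached 1 TPM in at least 3 libraries. All 32 genes passed that filter. The TPM table holds no read depth, and the labels do not say whether replicates were separate cultures, so p-values may measure technical spread only. One library stood apart: flu dark replicate 3 differed from the other flu dark libraries by a median of 0.15 and 0.16 on the log2 scale over the 32 genes, against 0.024 between the other pair of replicates. Values of the 32 genes that use flu dark are also given without this library where the value of a called gene moved by over 1.5 times or a call was lost or gained. Comparisons without flu dark keep their values when it is left out. Their calls can still change, because all comparisons share a common estimate of the spread. TOC33 itself read 203 ± 11.1 TPM (mean ± SD, n = 3) in dark and 172 ± 2.71 TPM in lit flu seedlings, and 48.7 ± 0.631 TPM and then 3.97 ± 0.271 TPM in dark and lit flu toc33 seedlings. The mutated gene was thus unequal between the 2 flu toc33 groups: its mean was 23.9% of that in flu in the dark and 2.31% in the light, a ratio of 12.2 between the dark and lit flu toc33 groups. The part of this inequality in the genotype comparisons and in the interaction was not tested. The labels name leaf as the tissue and the titles name seedlings. All 8 leaf markers were detected, with a summed level of 22639 to 29628 TPM, and the sum of 10 root markers lay between 804 and 1590.4 TPM, nearly all of it from PYK10.

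All 32 genes were strongly expressed. Together they took 4.53 ± 0.328% of all TPM in flu dark, 4.18 ± 0.0590% in flu light, 3.77 ± 0.0396% in flu toc33 dark and 3.53 ± 0.0504% in flu toc33 light (mean ± SD, n = 3); the flu dark mean was 4.34% without replicate 3. The most abundant was PSBR (AT1G79040), a small photosystem II protein of the thylakoid lumen side, at 6592, 6604 and 7291 TPM in the flu dark libraries; its mean over 12 libraries ranked number 6 among all loci, and that of the weakest member, PETE1, number 789. PSBO1 (AT5G66570), the major copy of the manganese-stabilising protein, followed with 2713, 2712 and 3132 TPM in flu dark, and PSBX (AT2G06520), a small membrane subunit of photosystem II, with 2304, 2242 and 2657 TPM. These 3 were far above the weakest members. PETE1 (AT1G76100), the minor plastocyanin gene, had 285, 283 and 318 TPM in flu dark, and PSAD2 (AT1G03130), a copy of a stromal photosystem I subunit, 345, 339 and 399 TPM. The ratio of the highest to the lowest group mean among the 32 genes was 23.1 in flu dark and 37.1 in flu toc33 light. PSBR ranked first in every group, and PSBS (AT1G44575) went from rank 24 of 32 in flu dark to rank 5 in flu toc33 light.

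**Figure D1:**
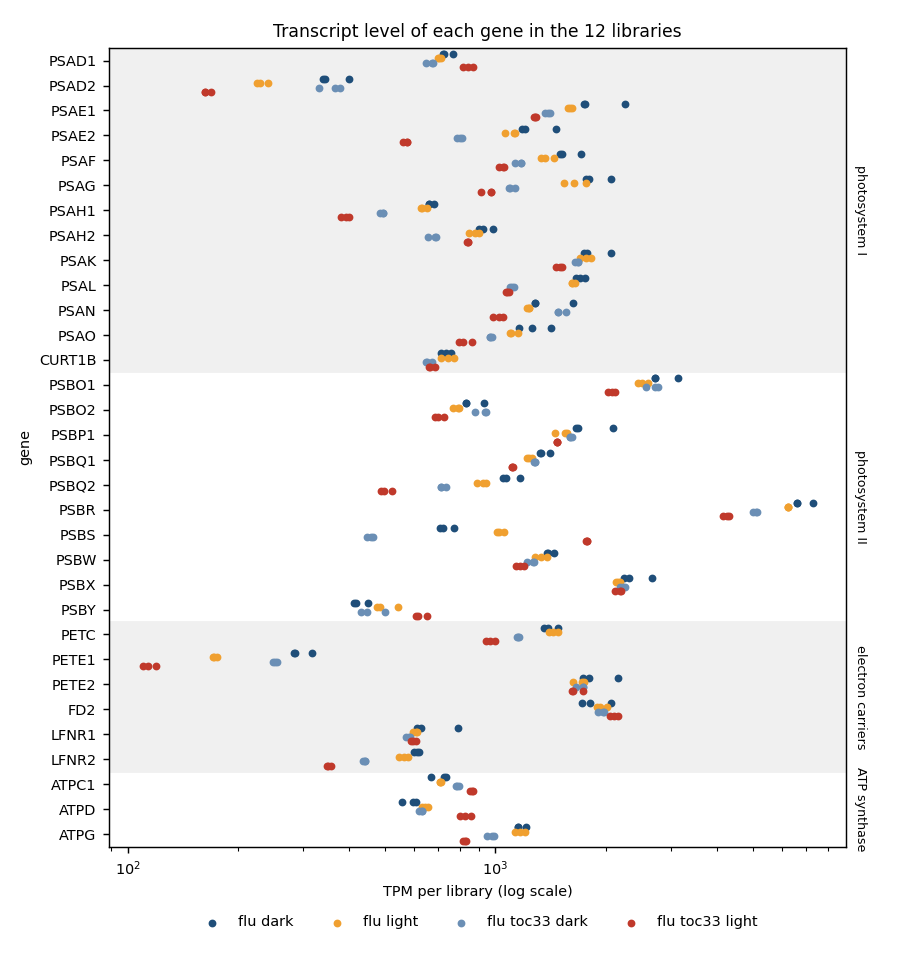
TPM of each of the 32 genes in each library on a log axis, with 1 point per library, coloured by group; the shaded bands separate photosystem I, photosystem II, carriers and ATP synthase genes. PSBR lies far to the right at up to 7291 TPM, PETE1 and PSAD2 lie to the left, and most flu toc33 points sit below the flu points of the same gene, with PSBS in flu toc33 light a clear exception.

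The first question was how 1 h of light changed these transcripts in flu, where the returning light meets accumulated protochlorophyllide. Small falls were the most frequent call. In flu, 19 of the 32 genes fell and 3 rose, at a median over the 32 of -0.13 on the log2 scale; among all loci tested, 33.4% fell and 28.2% rose, at a median of -0.037. The falls called in flu ran from -0.069 to -0.77, and only PETE1 and PSAD2 changed by 1.5-fold or more, whereas 24.7% of all loci did. In flu toc33, 18 of the 32 fell and 6 rose, at a median of -0.16, beside 30.6% of all loci that fell, 40.4% that rose and a median of 0.072. Of the falls, 13 were called in both genotypes, that is 13 of 19 in flu and 13 of 18 in flu toc33. These 2 comparisons share no library but use a common estimate of the spread, and the overlap over all loci was not counted. Without flu dark replicate 3 the median in flu was -0.070 over the 32 genes and -0.066 over all loci. In that run 16 genes fell in flu, 20 in flu toc33 and 15 in both. Of its 19607 loci tested, 7435 fell and 5357 rose in flu, and 6436 fell and 8346 rose in flu toc33. As the tissue was sampled in bulk, fewer cells of a type and less RNA per cell cannot be told apart.

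The calls of falls in flu depended on scaling, and their size on 1 library. Under median-ratio scaling 3 genes fell and 3 rose, beside 5866 and 6189 of the 19667 loci tested. The 16 falls no longer called all kept a negative value, between -0.21 and -0.029. The median over the 32 was -0.087 beside -0.00071 over all loci. Under quantile normalization 5 fell and 7 rose, beside 8660 and 4691 of all loci. Of the 14 falls no longer called 9 kept a negative value, and the median was 0.0083 beside -0.12. Under both scalings a smaller share of the 32 genes than of all loci was called lower. Without flu dark replicate 3, 16 fell and 4 rose, and 12 of the 22 called values moved by more than 1.5 times, to between -0.14 and -0.062. PSAH2, PSAL, PSAN and PETE2 then missed the threshold, at -0.062, -0.048, -0.065 and -0.062, while PSAH1 at -0.075 and FD2 at 0.14 passed it. The calls in flu that held under all 21 alternatives were the rises of PSBS, PSBY and ATPD and the falls of PSAD2, PSBQ2 and PETE1. In flu toc33, 21 of 24 calls held under all of them.

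Plastocyanin, the copper protein that carries electrons to photosystem I, showed the deepest falls. PETE1 had 285, 283 and 318 TPM in flu dark, as above, and 170.2, 175 and 172 TPM in flu light, a change of -0.77 ± 0.045 (limma, adjusted p = 2.55e-09). In flu toc33 it went from 248, 252 and 255 TPM to 114, 109.9 and 119.6 TPM, a change of -1.13 ± 0.045 (limma, adjusted p = 2.88e-11). Lit and dark libraries did not overlap in either genotype. The abundant copy PETE2 (AT1G20340) gave smaller values: the libraries held 1734, 1801 and 2159 TPM in flu dark and 1623, 1739 and 1719 TPM in flu light, overlapping, and its call in flu (-0.16; limma, adjusted p = 0.0472) was lost without flu dark replicate 3 and became 0.014 under quantile normalization. The PETE2 call in flu was lost with its sign kept under 13 of the 21 alternatives. In flu toc33 PETE2 was not called, at -0.044 ± 0.064.

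Among the photosystem I genes 9 of 13 fell in flu and none rose, while 8 fell and 2 rose in flu toc33. Of all loci, 33.4% fell and 28.2% rose in flu, and 30.6% fell and 40.4% rose in flu toc33. In flu, 7 of the 13 fell without flu dark replicate 3 and 1 under median-ratio scaling. Quantile normalization gave 2 falls and 2 rises there. The stromal subunits PSAD and PSAE form, with the plastid-encoded PsaC, the docking site of ferredoxin. PSAD2 (AT1G03130) read 345, 339 and 399 TPM in flu dark and 229, 241 and 225 TPM in flu light (-0.63 ± 0.061; limma, adjusted p = 5.99e-07), and 330.5, 378 and 367 TPM in flu toc33 dark and 169, 162 and 162 TPM in flu toc33 light (-1.11 ± 0.061; limma, adjusted p = 9.43e-10). Its paralog PSAD1 (AT4G02770) was not called in flu, at -0.064 ± 0.034, and rose in flu toc33 from 647, 672 and 676 TPM to 871, 843 and 818 TPM (0.34 ± 0.034; limma, adjusted p = 5.45e-07). The 2 PSAD genes thus changed in opposite directions in flu toc33, with no overlap between lit and dark libraries for either. PSAE2 (AT2G20260) fell by 0.21 in flu, or by 0.11 without flu dark replicate 3, and by 0.49 in flu toc33. PSAE1 (AT4G28750) changed by -0.25 in flu, called, and by -0.11 in flu toc33, not called. Without that library PSAE1 stood at -0.13 in flu and -0.11 in flu toc33, both called (limma, adjusted p = 1.79e-04 and 1.22e-04). The value in flu toc33 was the same in both runs, and its standard error went from 0.072 to 0.019.

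PSAH, PSAL and PSAO lie on the side of photosystem I where mobile light-harvesting complexes bind. PSAH1 (AT3G16140) held 495, 496 and 485 TPM in flu toc33 dark and 399, 393 and 381 TPM in flu toc33 light, a fall (-0.33 ± 0.029; limma, adjusted p = 1.60e-07), whereas PSAH2 (AT1G52230) went from 654, 684 and 691 TPM to 844, 843 and 839.5 TPM, a rise (0.32 ± 0.036; limma, adjusted p = 2.39e-06). In flu the changes of both were small, -0.068 for PSAH1, not called, and -0.10 for PSAH2, called. The PSAH2 call was lost under 6 of the 21 alternatives, the run without flu dark replicate 3 among them. PSAO (AT1G08380) fell in both genotypes, by 0.19 in flu, or 0.11 without that library, and by 0.24 in flu toc33. PSAL (AT4G12800) changed by -0.069 in flu, a call that turned to 0.067 under quantile normalization, and by -0.040 in flu toc33, not called. A further 15 of the 21 alternatives also lost the PSAL call in flu. Of the subunits on the plastocyanin side, PSAN (AT5G64040) fell most in flu toc33, from 1480.0, 1482 and 1554 TPM to 1051, 988 and 1021 TPM (-0.56 ± 0.070; limma, adjusted p = 6.26e-06). Its fall in flu of 0.18 was -0.065 without flu dark replicate 3 (limma, adjusted p = 0.0651), and the call was lost under 9 of the 21 alternatives. PSAF (AT1G31330), which docks plastocyanin, fell by 0.19 in flu and by 0.15 in flu toc33. PSAG (AT1G55670) and PSAK (AT1G30380), membrane subunits at the edge that contacts the antenna, changed by -0.18, with overlapping libraries, and -0.080 in flu and by -0.22 and -0.16 in flu toc33, of which the PSAK value in flu was not called and read 0.11 under quantile normalization. The PSAG fall in flu was 0.11 without flu dark replicate 3. CURT1B (AT2G46820), a protein that bends thylakoid membranes and was once counted with photosystem I, was not called in either genotype.

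In photosystem II, 7 of 10 genes fell and 2 rose in flu, and 6 fell and 2 rose in flu toc33. Of all loci, 33.4% fell and 28.2% rose in flu, and 30.6% fell and 40.4% rose in flu toc33. In flu, median-ratio scaling gave 1 fall and 2 rises among the 10, and quantile normalization 2 and 2. The largest rise of the whole set was that of PSBS, the sensor of lumen acidity required for rapid thermal dissipation of excess light. PSBS stood at 706, 718 and 773 TPM in flu dark and 1052, 1012 and 1024 TPM in flu light (0.49 ± 0.035; limma, adjusted p = 2.27e-08). In flu toc33 the libraries read 446, 459.8 and 465 TPM in the dark and 1774, 1769 and 1759.9 TPM in the light (1.95 ± 0.035; limma, adjusted p = 5.97e-15), a rise of 287% in the mean. Flu toc33 thus held both the lowest and the highest libraries for PSBS, and no groups overlapped. PSBY (AT1G67740), a small membrane subunit, also rose in both genotypes, by 0.23 in flu and 0.44 in flu toc33.

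The luminal proteins around the manganese cluster moved the other way. PSBQ2 (AT4G05180) held 1071, 1046 and 1168 TPM in flu dark and 926, 941 and 891 TPM in flu light (-0.25 ± 0.042; limma, adjusted p = 1.38e-04). In flu toc33 it held 709.8, 735 and 712 TPM in the dark and 523, 489 and 498 TPM in the light (-0.51 ± 0.042; limma, adjusted p = 7.20e-08). In flu toc33 this was the deepest fall among the luminal proteins. PSBQ1 (AT4G21280) fell by 0.13 in flu and 0.20 in flu toc33. PSBO1 fell by 0.18 in flu, where quantile normalization turned the value to 0.062, and by 0.37 in flu toc33, and PSBO2 (AT3G50820) fell by 0.14 and 0.39. Without flu dark replicate 3 the falls in flu were 0.11 for PSBO1 and 0.084 for PSBO2. PSBP1 (AT1G06680), which helps retain calcium and chloride at the cluster, was called lower in flu at -0.25 and not called in flu toc33 at -0.12, and the difference between these responses was not called (limma, adjusted p = 0.287). Without flu dark replicate 3 the values were -0.14 and -0.12, both called (limma, adjusted p = 9.57e-04 and 7.02e-04). PSBR fell by 0.13 in flu, a value of 0.047 under quantile normalization, and by 0.26 in flu toc33; without flu dark replicate 3 it fell by 0.078 in flu. PSBW (AT2G30570), which supports photosystem II dimers, changed by -0.075 and -0.10, and PSBX by -0.15 and -0.036. Quantile normalization gave PSBX positive values, 0.092 in flu and 0.20 in flu toc33, and without flu dark replicate 3 its value in flu was -0.076.

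Of the remaining carriers, PETC (AT4G03280), the Rieske iron-sulfur protein of the cytochrome complex, held 1355, 1392 and 1482 TPM in flu dark and 1394, 1483 and 1435 TPM in flu light, overlapping and not called. It fell in flu toc33 from 1161, 1152 and 1147 TPM to 999, 939.8 and 967 TPM (-0.25 ± 0.037; limma, adjusted p = 3.16e-05). FD2 (AT1G60950), the main leaf ferredoxin, was not called in either genotype, at 0.063 and 0.11, and without flu dark replicate 3 it rose in both, by 0.14 and 0.11. Of the ferredoxin-NADP+ reductases, LFNR2 (AT1G20020) fell by 0.12 in flu and 0.32 in flu toc33, and LFNR1 (AT5G66190) was not called in either, at -0.15 in flu, or -0.031 without flu dark replicate 3, and 0.047 in flu toc33. Of the 3 ATP synthase genes 1 rose in flu, and 2 rose and 1 fell in flu toc33, beside the shares of all loci given above. ATPD (AT4G09650), the delta subunit, rose from 607, 598 and 557 TPM to 631, 655 and 643 TPM in flu (0.13 ± 0.037; limma, adjusted p = 0.00665) and from 633, 631 and 621 TPM to 827, 859.8 and 802 TPM in flu toc33 (0.40 ± 0.037; limma, adjusted p = 2.56e-07). ATPC1 (AT4G04640), the gamma subunit that turns within the enzyme, was not called in flu at -0.0019 and rose by 0.13 in flu toc33. ATPG (AT4G32260), a subunit of the membrane stalk, was not called in flu and fell by 0.24 in flu toc33.

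**Figure D2:**
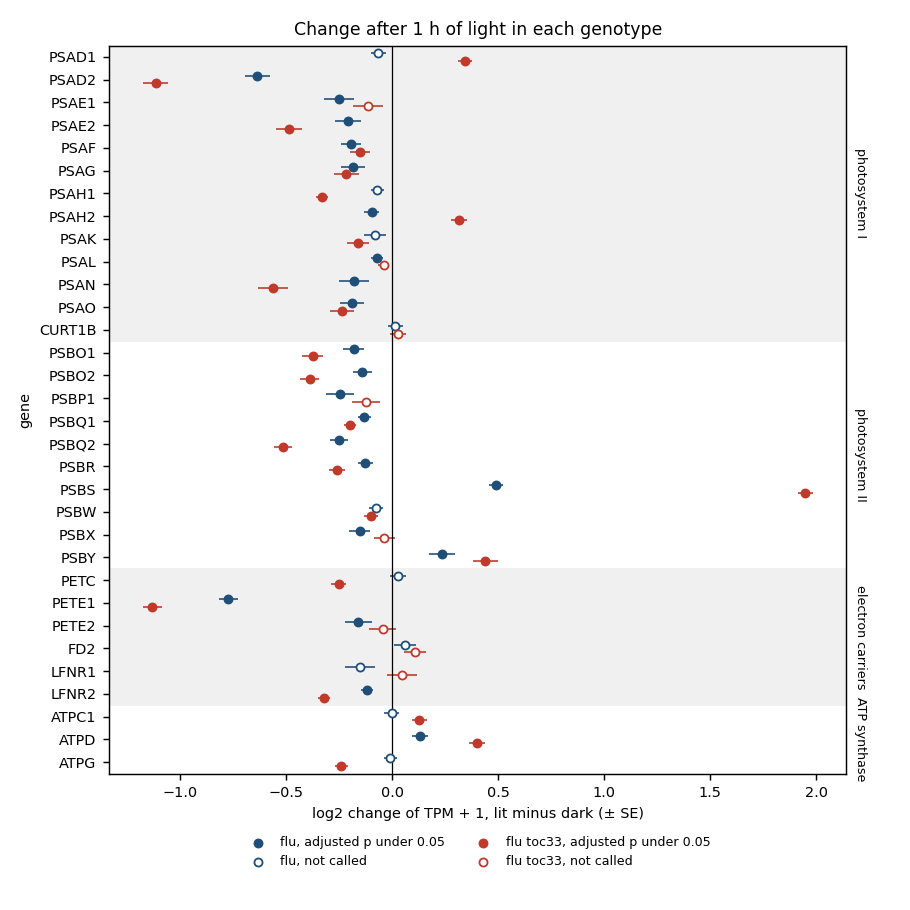
log2 change of TPM + 1 from dark to light for each gene, in flu (blue) and flu toc33 (red); points are model estimates from 3 libraries a group, bars are standard errors, and filled points passed an adjusted p of 0.05. Most points lie left of 0, PSBS lies far to the right in flu toc33 at 1.95, and the PSAD and PSAH pairs split to both sides of 0 in flu toc33.

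The second question was how toc33-1 changed the same genes on the flu background. The genotype comparisons reuse the libraries of the light comparisons, so each set of values is given as its own description. Lower values in flu toc33 were the most frequent call in both treatments. After 4 h of darkness, 21 of the 32 genes were lower in flu toc33 and 2 were higher, at a median of -0.19, whereas 20.5% of all loci were lower and 20.9% higher, at a median of 0.012. After 1 h of light, 21 were lower and 5 higher, at a median of -0.25, beside 27.9% of all loci lower, 39.0% higher and a median of 0.077. Of the 21 lower genes of each comparison, 17 were lower in the other. The 2 comparisons share no library but use a common estimate of the spread, and the overlap over all loci was not counted. Without flu dark replicate 3, 20 were lower and 4 higher in the dark, at a median of -0.14 beside -0.017 over all loci. PSAN, PSBO2 and FD2 then joined the higher genes and PSBQ1 and ATPD were lost. In the light 21 were lower and 6 higher without that library, FD2 being gained. Of the 19607 loci tested in that run, 4698 were lower and 4032 higher in the dark, and 5951 lower and 8269 higher in the light. In the light all 26 calls held under all 21 alternatives, and in the dark 17 of 23 did, all of them falls.

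Markers of other tissues also differed between the genotypes. In the dark all 5 epidermis markers were higher in flu toc33 and in the light 4 were higher and 1 lower, with sums of 308 ± 29.1, 337 ± 2.21, 374 ± 3.80 and 547 ± 20.3 TPM in flu dark, flu light, flu toc33 dark and flu toc33 light. Of 8 root markers tested, 1 was higher and 1 lower in the dark, and 7 were higher in the light; in the same order of groups all 10 summed to 1289.9 ± 110.4, 828 ± 22.1, 1572 ± 25.9 and 1375 ± 17.99 TPM. All 8 root markers tested were lower after light in flu. The 8 leaf markers summed, in the same order, to 28696 ± 831, 27247 ± 895, 24424 ± 299.6 and 22869 ± 346 TPM. Most of each sum came from RBCS1A and RBCS3B, with means of 16731 and 8156 TPM in flu dark. In flu toc33 light these means were 13822.5 and 5218 TPM. Single leaf markers went both ways, 4 higher and 4 lower in the dark and 4 higher and 3 lower in the light. Guard cell markers gave 0 higher and 2 lower of 5 in the dark and 1 higher and 2 lower in the light, and vascular markers 1 higher and 2 lower, then 2 higher and 2 lower, of 5 tested. None of the 34 markers was at 0 in every library. The part of these markers in the genotype differences was not tested.

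Photosystem I held the most falls: 11 of the 13 genes listed with it, CURT1B among them, were lower in flu toc33 in each treatment. Of all loci, 20.5% were lower in the dark and 27.9% in the light. PSAG (AT1G55670) stood at 1759, 1797 and 2061 TPM in flu dark and 1096, 1133 and 1089.9 TPM in flu toc33 dark (-0.76 ± 0.058; limma, adjusted p = 2.93e-07). In the light the values were 1639.7, 1762 and 1539 TPM in flu and 973, 971 and 915 TPM in flu toc33 (-0.79 ± 0.058; limma, adjusted p = 4.09e-08). The genotypes were well apart in both treatments. PSAL was nearly constant within a genotype, at 1658, 1703 and 1755 and 1648, 1610.2 and 1617 TPM in flu dark and light against 1093, 1108 and 1122 and 1091, 1077 and 1065 TPM in flu toc33 dark and light, with differences of -0.62 ± 0.028 in the dark (limma, adjusted p = 1.71e-09) and -0.59 ± 0.028 in the light (limma, adjusted p = 3.34e-10). PSAE2 showed the deepest fall of the set in the light, 1119.8, 1129 and 1061 TPM in flu against 574, 576 and 561 TPM in flu toc33 (-0.95 ± 0.062; limma, adjusted p = 1.05e-08), after -0.67 in the dark. PSAE1 was lower by 0.45 and 0.31, PSAF by 0.44 and 0.40, PSAH1 by 0.44 and 0.70 and PSAO by 0.39 and 0.44, dark and light in turn.

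The other photosystem I genes gave smaller or unequal differences in the 2 treatments. PSAD1 was lower in flu toc33 in the dark (-0.15 ± 0.034; limma, adjusted p = 0.00326) and higher in the light (0.26 ± 0.034; limma, adjusted p = 1.20e-05). PSAD2 gave -0.0094 in the dark, not called, and was lower by 0.49 in the light. PSAH2 was lower by 0.47 in the dark and not called in the light at -0.058. PSAN gave 0.11 in the dark, not called, or 0.23 and called without flu dark replicate 3, and -0.27 in the light, called. PSAK and CURT1B were lower by 0.15 and 0.16 in the dark and by 0.23 and 0.15 in the light, and the dark value of PSAK was -0.078 without flu dark replicate 3. The dark call of PSAK was lost under 7 of the 21 alternatives, at values between -0.17 and -0.0027.

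Fewer photosystem II genes differed in the dark, where 5 of 10 were lower and none was higher. In the light 6 were lower and 2 higher. Of all loci, 20.5% were lower and 20.9% higher in the dark, and 27.9% lower and 39.0% higher in the light. PSBQ2 held 1071, 1046 and 1168 TPM in flu dark against 709.8, 735 and 712 TPM in flu toc33 dark (-0.60 ± 0.042; limma, adjusted p = 1.01e-07), and 926, 941 and 891 TPM in flu light against 523, 489 and 498 TPM in flu toc33 light (-0.87 ± 0.042; limma, adjusted p = 4.28e-10). PSBQ1 differed far less, by -0.081 in the dark, lost at -0.053 without flu dark replicate 3 and 0.0075 under quantile normalization, and by -0.15 in the light. Its dark call was lost with the sign kept under 9 of the 21 alternatives. PSBR was lower by 0.42 in the dark and 0.56 in the light, and PSBW by 0.17 and 0.19. The manganese-stabilising proteins PSBO1 and PSBO2 were not called in the dark and were lower by 0.28 and 0.16 in the light; without flu dark replicate 3, PSBO2 was higher in the dark by 0.15. PSBS was the gene that changed sides most: -0.68 ± 0.035 in the dark (limma, adjusted p = 5.46e-09) and 0.78 ± 0.035 in the light (limma, adjusted p = 1.80e-10). PSBY was called in the light alone of the 2 treatments, at 0.31, against 0.11 in the dark, and the difference between these was not called (limma, adjusted p = 0.0575). PSBP1 and PSBX were not called in either treatment.

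Among the carriers, LFNR2 held 613, 621 and 599 TPM in flu dark against 442, 441 and 435 TPM in flu toc33 dark (-0.47 ± 0.029; limma, adjusted p = 3.31e-08), and in the light 579, 546 and 564 TPM against 349, 349.6 and 357 TPM (-0.68 ± 0.029; limma, adjusted p = 1.33e-10). LFNR1 was lower in the dark by 0.21, a value that became -0.093 without flu dark replicate 3 (limma, adjusted p = 0.00666), and was not called in the light at -0.015. The dark call of LFNR1 was lost under 6 of the 21 alternatives. PETC was lower by 0.29 in the dark and 0.57 in the light, and PETE1 by 0.23 and 0.59. PETE2 and FD2, the abundant plastocyanin and ferredoxin genes, were not called in either treatment, but without flu dark replicate 3 FD2 was higher in flu toc33 by 0.14 in the dark and 0.11 in the light. The ATP synthase genes split again. ATPC1 was higher in flu toc33 by 0.15 in the dark and 0.28 in the light, and ATPD by 0.10 and 0.37. The dark call of ATPD was lost under 12 of the 21 alternatives, at values down to 0.018, and at 0.060 without flu dark replicate 3. ATPG was lower by 0.27 and 0.50.

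**Figure D3:**
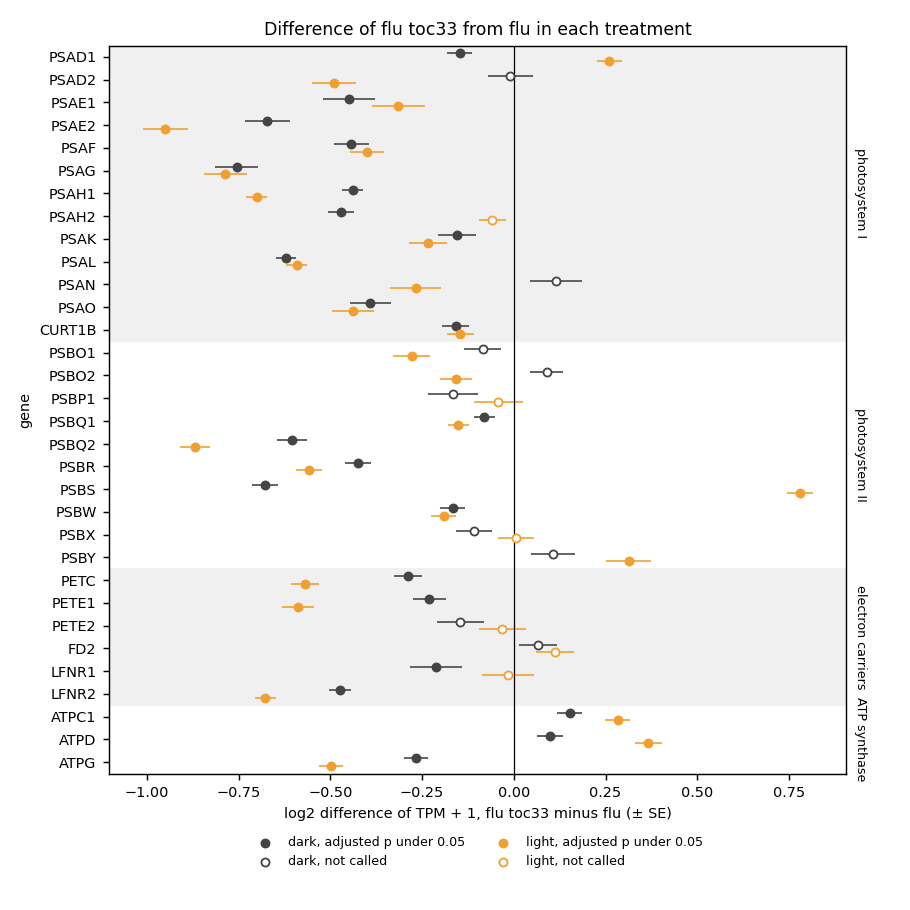
log2 difference of TPM + 1, flu toc33 minus flu, for each gene in the dark (dark grey) and in the light (orange); points are model estimates from 3 libraries a group, bars are standard errors, and filled points passed an adjusted p of 0.05. Photosystem I points lie mostly between -0.95 and 0, PSBS lies at -0.68 in the dark and 0.78 in the light, and ATPC1 and ATPD lie right of 0.

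Whether light acted differently in the 2 genotypes was tested as the interaction of light and genotype, the light change in flu toc33 minus that in flu. The response of 5 of the 32 genes was shifted upwards in flu toc33 and that of 12 downwards, where 31.6% of all loci were shifted upwards and 25.1% downwards; the median was -0.028 over the 32 and 0.065 over all loci. Without flu dark replicate 3 the counts were 5 and 14, with PSAK at -0.16 and PSBQ1 at -0.098 gained. Of the 19607 loci tested in that run, 7120 were shifted upwards and 5089 downwards. PSBS had the largest difference, 1.46 ± 0.049 (limma, adjusted p = 2.93e-11), followed upwards by PSAH2 at 0.41 ± 0.051 (limma, adjusted p = 1.12e-05) and PSAD1 at 0.41 ± 0.048 (limma, adjusted p = 7.11e-06). ATPD at 0.27 and ATPC1 at 0.13 completed that group. The deepest differences downwards were those of PSAD2 at -0.48 ± 0.086 (limma, adjusted p = 3.08e-04), PSAN at -0.38 ± 0.10 (limma, adjusted p = 0.00475) and PETE1 at -0.36 ± 0.063 (limma, adjusted p = 2.80e-04). PETC, PSAE2, PSBQ2, PSAH1, PSBO2, ATPG, LFNR2, PSBO1 and PSBR made up the remaining 9, between -0.28 and -0.13. By the definition of the interaction, the change in flu toc33 was the more negative in all 12 of these. Of the 17 calls 14 held under all 20 alternatives. Those of PSBO1, PSBR and ATPC1 were lost under 9, 11 and 10 of the 20, with ATPC1 as low as 0.031.

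Paralog pairs were compared by the share of the first copy in the summed TPM of the pair, a measure that does not depend on scaling between libraries. Light and genotype were each tested with an exact two-sided permutation test within strata (400 arrangements, smallest possible p 0.005), which gave 14 tests over 7 pairs, adjusted together by Benjamini-Hochberg. Of these, 3 light tests and 5 genotype tests passed. Within 1 genotype or treatment alone, an exact test of 3 against 3 libraries cannot go below p = 0.1. Reads that fit both copies of a pair are apportioned by the abundance estimate, which makes the share of very similar copies uncertain.

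The PSAD pair shifted most with light. PSAD1 supplied 67.8, 67.9 and 65.8% of the pair in flu dark and 75.3, 74.8 and 75.7% in flu light, and 66.2, 64.0 and 64.8% in flu toc33 dark and 83.8, 83.8 and 83.4% in flu toc33 light. The mean shift with light was 13.4 percentage points (exact permutation, adjusted p = 0.0117), and lit and dark libraries were separate in both genotypes. The genotype shift of 3.14 points was not called (exact permutation, adjusted p = 0.102), being -2.14 in the dark and 8.42 in the light. For plastocyanin, PETE1 supplied 13.5 ± 0.650% of the pair in flu dark, 9.24 ± 0.216% in flu light, 12.8 ± 0.161% in flu toc33 dark and 6.47 ± 0.381% in flu toc33 light. The minor copy thus changed by -5.33 points with light on average (exact permutation, adjusted p = 0.0117), and by -1.73 points with flu toc33 against flu (exact permutation, adjusted p = 0.0175).

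The PSBQ pair followed the genotype. PSBQ1 made up 55.3, 55.9 and 54.6% in flu dark and 57.5, 56.5 and 58.0% in flu light, against 64.3, 63.6 and 64.1% in flu toc33 dark and 68.2, 69.4 and 69.1% in flu toc33 light. Its share was 10.1 points higher in flu toc33 and 3.46 points higher in the light (exact permutation, adjusted p = 0.0117 for each). All 6 flu libraries lay below all 6 flu toc33 libraries. The PSAE1 share was 59.8 ± 0.689% in flu dark, 59.1 ± 0.539% in flu light, 63.4 ± 0.0752% in flu toc33 dark and 69.2 ± 0.465% in flu toc33 light, 6.86 points higher in flu toc33 (exact permutation, adjusted p = 0.0117), with no call for light.

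The LFNR pair had the same direction: LFNR1 made up 50.6, 49.6 and 56.9% in flu dark, 51.3, 52.8 and 51.4% in flu light, 56.4, 57.0 and 57.3% in flu toc33 dark and 63.2, 63.5 and 62.4% in flu toc33 light. It was 7.86 points higher in flu toc33 (exact permutation, adjusted p = 0.0175), and the highest flu dark value, from replicate 3, lay within the range of flu toc33 dark. Its light shift of 2.80 points was not called (exact permutation, adjusted p = 0.0955), and was 3.94 points and called without that library. PSBO1 held 76.7 ± 0.289%, 76.2 ± 0.411%, 74.5 ± 0.0847% and 74.6 ± 0.416% of its pair in flu dark, flu light, flu toc33 dark and flu toc33 light, a genotype shift of -1.89 points (exact permutation, adjusted p = 0.0117) smaller than those of PSBQ, LFNR and PSAE. The PSAH1 share in flu dark, flu light and flu toc33 dark was 41.6 ± 1.36%, 42.0 ± 0.416% and 42.1 ± 0.901%, and stood at 32.1, 31.8 and 31.2% in the 3 flu toc33 light libraries. Neither stratified test called it (exact permutation, adjusted p = 0.0955 for each), but the light shift of -4.97 points was -5.31 and called without flu dark replicate 3 (exact permutation, adjusted p = 0.049). The interaction of shares was not tested.

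**Figure D4:**
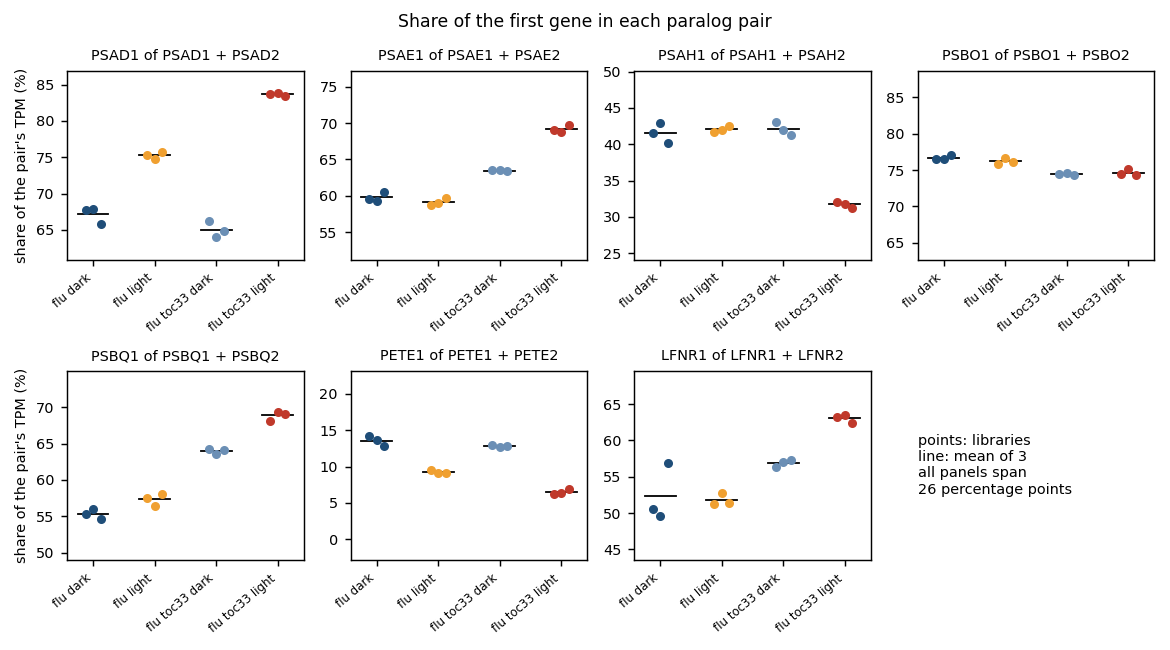
Share of the first copy in the summed TPM of each paralog pair, in percent, with 1 point per library, groups on the x axis and a line at the mean of 3 libraries; every panel spans the same number of percentage points, so heights can be compared. PSAD1 rises and PETE1 falls with light in both genotypes, PSBQ1, PSAE1 and LFNR1 are higher in flu toc33, and PSAH1 lies lower in flu toc33 light, at a mean of 31.7%.

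Summed over the genes listed with it, CURT1B included, photosystem I differed most between the groups. Its share of the library was 1.63 ± 0.138% in flu dark, 1.46 ± 0.0314% in flu light, 1.26 ± 0.0157% in flu toc33 dark and 1.12 ± 0.0174% in flu toc33 light. Photosystem II stood at 1.98 ± 0.137%, 1.82 ± 0.0183%, 1.67 ± 0.0191% and 1.58 ± 0.0199% in the same order, and the carriers at 0.676 ± 0.0566%, 0.642 ± 0.0149%, 0.608 ± 0.00537% and 0.579 ± 0.0137%. All of these sums were lowest in flu toc33 light. Without replicate 3 the flu dark means were 1.55% for photosystem I, 1.90% for photosystem II and 0.643% for the carriers, so the carriers then held the same share in dark and lit flu to within the SD of the lit libraries. The ratio of photosystem I to photosystem II TPM was 0.817, 0.820 and 0.839 in flu dark and 0.804, 0.811 and 0.793 in flu light. It was 0.752, 0.751 and 0.755 in flu toc33 dark and 0.708, 0.708 and 0.702 in flu toc33 light. All 6 flu toc33 libraries lay below all 6 flu libraries, and in each genotype the lit libraries lay below the dark ones. The step with light depended on 1 gene. PSBS counts towards photosystem II, and its flu toc33 mean rose from 457 to 1768 TPM with light. With PSBS left out, the lit flu toc33 libraries lie above their dark counterparts, and lit and dark flu libraries overlap. The separation of the genotypes remains without PSBS. The highest ratio came from flu dark replicate 3. Its shares were 1.79% for photosystem I, 2.13% for photosystem II and 0.741% for the carriers, beside 1.55% and 1.55%, 1.90% and 1.90%, and 0.643% and 0.643% in replicates 1 and 2.

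The ATP synthase sum changed little by comparison. In flu it was 2469 ± 28.3 TPM after darkness and 2517 ± 25.9 TPM after light, and in flu toc33 2389.9 ± 17.5 and 2516 ± 36.2 TPM. Within the complex the 3 genes converged: the highest mean was 2.00 times the lowest in flu dark, 1.81 times in flu light, 1.55 times in flu toc33 dark and 1.04 times in flu toc33 light. ATPG was highest in flu dark at 1173 ± 36.2 TPM, beside 709 ± 36.1 TPM for ATPC1 and 587 ± 26.7 TPM for ATPD, and in flu toc33 light the 3 stood at 825 ± 9.28 TPM, 861 ± 8.70 TPM and 829.6 ± 28.8 TPM. These sums and ratios are descriptions with no test.

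**Figure D5:**
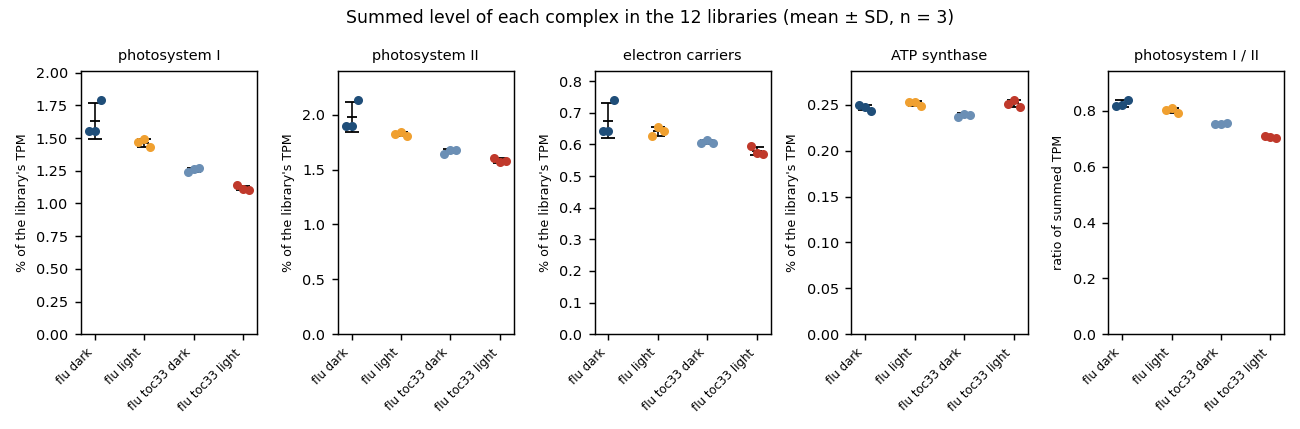
Summed TPM of each complex as a percentage of the library, and the ratio of photosystem I to photosystem II sums, for the 4 groups on the x axis; points are libraries, bars are mean ± SD of 3, and all y axes start at 0. The photosystem sums step down from flu dark to flu toc33 light, the ATP synthase sum stays near 0.247% of the library, and flu dark replicate 3 stands above the other flu dark libraries in the first 3 panels. The photosystem II sum includes PSBS, without which the ratio does not fall with light in flu toc33.

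A further 30 nuclear loci of electron transport, comprising minor copies, cyclic and alternative routes, regulators and curvature proteins, were counted with the same model. With light 6 rose and 16 fell in flu and 9 rose and 16 fell in flu toc33, at medians of -0.11 and -0.11. Between genotypes, 12 were higher and 6 lower in flu toc33 in the dark, and 16 higher and 8 lower in the light, at medians of 0.089 and 0.16. The percentages of all loci called are those given above for each comparison. The interaction called 10 upwards and 8 downwards. FD1 (AT1G10960), the minor leaf ferredoxin, rose with light from 357 ± 38.6 to 534 ± 20.4 TPM in flu (0.58 ± 0.058; limma, adjusted p = 8.81e-07). In flu toc33 it rose from 325 ± 4.12 to 1437 ± 30.8 TPM (2.14 ± 0.058; limma, adjusted p = 4.68e-13). CURT1D (AT4G38100), a relative of CURT1B, rose by 0.43 ± 0.036 in flu and 1.29 ± 0.036 in flu toc33, to 133 ± 4.01 TPM. The abundant relatives of both, FD2 and CURT1B, were not called with light in either genotype.

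The remaining genes named by rule from this list changed in both directions. PSBP2 (AT2G30790), a weakly expressed relative of PSBP1, fell with light in flu from 8.72 ± 1.05 to 3.79 ± 0.530 TPM (-1.02 ± 0.12). RFNR1 (AT4G05390) and RFNR2 (AT1G30510), the root-type ferredoxin-NADP+ reductases, were lower in flu toc33 in the dark by 0.85 ± 0.060 and 0.77 ± 0.059, and RFNR2 fell with light in flu by 0.46 ± 0.059. NDHM (AT4G37925) and NDHL (AT1G70760), subunits of the NDH complex of cyclic electron flow, were higher in flu toc33 in the dark by 0.54 ± 0.042 and 0.59 ± 0.049, and the light response of NDHM was -0.44 ± 0.060 in the interaction. TAP38 (AT4G27800) and STN8 (AT5G01920), a phosphatase and a kinase of thylakoid proteins, fell with light in flu toc33 by 0.53 ± 0.035 and 0.63 ± 0.047. STN8 was also shifted downwards in the interaction, at -0.43 ± 0.066, and TAP38 was lower in flu toc33 in the light by 0.37 ± 0.035. PSB28 (AT4G28660), a factor found with photosystem II assembly intermediates, was higher in flu toc33 in the light by 0.96 ± 0.037, at 373 ± 9.38 TPM against 192 ± 4.56 TPM in flu, and PPL1 (AT3G55330), a PSBP-like protein, was lower by 0.24 ± 0.042. All passed the adjusted p of 0.05.

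Of 9 assembly factors, 2 rose and 1 fell with light in flu and 4 rose and 3 fell in flu toc33, and in flu toc33 6 were higher and 1 lower in the dark and 4 higher and 2 lower in the light. The interaction called 1 upwards and 2 downwards. The percentages of all loci called are again those given above for each comparison. HCF136 (AT5G23120), needed to assemble photosystem II, was higher in flu toc33 in the dark (0.34 ± 0.029) and lower in the light (-0.20 ± 0.029), with a fall of 0.50 ± 0.029 after light in flu toc33 and an interaction of -0.54 ± 0.041 (limma, adjusted p = 9.97e-08). Y3IP1 (AT5G44650), a photosystem I assembly factor, rose with light by 0.17 ± 0.033 in flu and 0.47 ± 0.033 in flu toc33, and was higher in flu toc33 in the light by 0.46 ± 0.033. Its light response differed between genotypes by 0.30 ± 0.047. CCDA (AT5G54290) and HCF164 (AT4G37200), both of the thiol pathway that serves the cytochrome complex, changed with light in flu toc33 by -0.37 ± 0.041 and 0.27 ± 0.066, and the interaction of CCDA was -0.33 ± 0.057. THF1 (AT2G20890), needed for thylakoid formation, rose after light in flu by 0.083 ± 0.030. CGL160 (AT2G31040), which assists ATP synthase assembly, was lower in flu toc33 by 0.13 ± 0.044 in the dark and 0.19 ± 0.044 in the light, and locus AT1G22700 was higher by 0.40 ± 0.036 and 0.45 ± 0.036 and fell by 0.12 ± 0.036 with light in flu.

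The plastid-encoded partners of the complexes were counted as 16 loci, which the tables at hand list without names. Of these 13 were lower in flu toc33 in each treatment and none was higher, at medians of -0.60 in the dark and -0.57 in the light, beside -0.19 and -0.25 for the 32 nuclear genes. Of all loci, 20.5% were lower in the dark and 27.9% in the light, at medians of 0.012 and 0.077. With light 1 rose and 1 fell in flu and 3 rose and 2 fell in flu toc33, and the interaction called 3 upwards and 2 downwards. How RNA was selected before sequencing is not stated in these sources, and such selection bears on transcripts of the plastid genome.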

How the data were processed

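RNA-seq of total RNA from both genotypes used the DNBSEQ-T7 platform, per the labels' protocols. The authors deposited 1 table of TPM for 48359 transcripts in 12 libraries, scaled to the same sum in each library. Per the submitters' processing notes kallisto 0.46.2, sleuth 0.30.0 and TAIR10 were used; which transcripts were indexed, and with what strand setting, is not stated in these sources. Columns were matched to samples by their names, with 0 left unmatched. TPM is relative, so a rise of some genes lowers the rest, and it carries no depth.

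Transcripts were summed to 27655 loci and put on the log2 scale after adding a pseudocount of 1 TPM, which understates changes of low genes. Loci at 1 TPM in at least 3 libraries were fitted, 19667 in all, with limma 3.58.1 in R 4.3.3 (4 group means, trended spread, two-sided moderated tests, Benjamini-Hochberg over all loci, threshold 0.05). The script was tested on simulated data. Paralog shares were tested with exact permutations, in Python 3.11.15 with pandas 2.3.3 and numpy 2.4.6; figures used matplotlib 3.10.9. The alternatives tried were other pseudocounts (0.1 and 5 TPM), other filters (none and 5 TPM), quantile and median-ratio scaling, a robust spread, the replicate block, the compared groups alone and leaving out each library. Names were checked in a RefSeq table of TAIR10.1, which held all 32 loci; no coordinate was taken from it, since the processing notes name another build. All 32 genes are named, and from the 2 additional lists the 2 called loci with the smallest p in each direction and comparison. Genes, lists and tests were chosen with earlier results of these data known.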

Additional observations from a re-analysis of the deposited data

Results flagged for a closer look

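The light response differed between flu and flu toc33 in 17 of the 32 genes, 5 upwards and 12 downwards. The test was the interaction term of the limma model, at an adjusted p under 0.05 over all loci. In it 31.6% of all loci were shifted upwards and 25.1% downwards, so a call of either kind was common among all loci too. The calls of PSBO1, PSBR and ATPC1 were lost under 9, 11 and 10 of 20 alternatives. The values are differences on the log2 scale, light change in flu toc33 minus light change in flu. Upwards, PSBS stood at 1.46, PSAH2 at 0.41, PSAD1 at 0.41, ATPD at 0.27 and ATPC1 at 0.13. Downwards, the photosystem I genes PSAD2, PSAN, PSAE2 and PSAH1 stood at -0.48, -0.38, -0.28 and -0.26. The photosystem II genes PSBQ2, PSBO2, PSBO1 and PSBR stood at -0.26, -0.25, -0.19 and -0.13. The carriers PETE1, PETC and LFNR2 stood at -0.36, -0.28 and -0.20, and ATPG at -0.23. PSBS, PSAH2 and PSAD1 were the genes whose dark level was lower in flu toc33 and whose light response was higher there; the cause was not tested.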

How the results depend on the processing

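Read depth is not contained in TPM, so counting error is unknown. In flu, 3 genes rose and 19 fell with light. Quantile normalization gave 7 and 5, median-ratio scaling 3 and 3, and fitting the 2 compared groups alone 12 falls. The counts over all loci under both scalings are those given above. For flu toc33 in the dark the 2 higher calls became 1 without a filter on low values, under median-ratio scaling and with the compared groups alone, and 1 to 4 when single libraries were left out. The lower calls moved between 18 and 23 in the dark and 13 and 20 for light in flu when single libraries were left out. Under quantile normalization the light change in flu reversed to 0.11 for PSAK, 0.067 for PSAL, 0.062 for PSBO1, 0.047 for PSBR, 0.092 for PSBX and 0.014 for PETE2, that in flu toc33 to 0.20 for PSBX, and the dark genotype difference to 0.0075 for PSBQ1; the cause was not tested. Quantile normalization moved the median of all loci for light in flu from -0.037 to -0.12. Counts of calls were the same with a pseudocount of 0.1 or 5 TPM, a filter at 5 TPM and a robust spread. Same-numbered libraries did not deviate together (correlations -0.085 to 0.024). These values cannot show whether samples of the same number were grown or harvested together. With the replicate number as a block, 18 in place of 19 genes fell with light in flu, 20 in place of 21 were lower in flu toc33 in the dark and 6 in place of 5 were shifted upwards. For paralog shares the exact paired sign-flip test keeps the shifts (with light 13.4 for PSAD, 3.46 for PSBQ and -5.33 points for PETE; with genotype 6.86 for PSAE, -1.89 for PSBO, 10.1 for PSBQ, -1.73 for PETE and 7.86 for LFNR) and the log2 ratio of the copies gave the same calls as the share. The exact sign-flip test cannot go below p = 0.0312. All 8 of these shifts had an adjusted p of 0.0547 in it, so none is called under that block. The adjusted value depends on how many of the 14 tests reach the smallest p. When single libraries were left out, the light shift ranged from -5.31 to -4.63 points for PSAH and from 2.11 to 3.94 for LFNR, and both were called only without flu dark replicate 3.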

Other observations

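Of the 32 genes 11 had more than 1 annotated transcript with a value, and 1 transcript dominated in all of them. For PSBS, the second transcript made up 0.338 ± 0.0751% of the locus in flu dark and 2.55 ± 0.216% in flu light, and 1.01 ± 0.166% in flu toc33 dark and 2.58 ± 0.225% in flu toc33 light (mean ± SD, n = 3). The third transcript of PSBS was listed at 0 in the 3 flu dark libraries and made up 0.441 ± 0.0819% in flu light. The second transcript of LFNR2 took 4.38 ± 0.0707% in flu dark, 4.65 ± 0.358% in flu light, 8.66 ± 0.580% in flu toc33 dark and 6.04 ± 0.0411% in flu toc33 light. For CURT1B the second transcript took 12.9 ± 6.40%, 15.4 ± 2.01%, 10.9 ± 0.511% and 12.1 ± 1.55% in the same order, with wide spread in flu dark. These genes were picked after their values were seen, and no test was made.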
